A study of Homo sapiens with 9 samples.

Results

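DNMT3B knockdown cells were compared with Control cells gene by gene, in 3 libraries of each group, 6 of the 9 libraries of the study. The comparison covered 16660 of the 25886 gene symbols in the deposited count table, namely all that passed a filter on low counts; 3310 symbols had no count in any of the 9 libraries. All cells were labelled HT29, an established human colorectal cancer line. The stable knockdown lines were made with lentiviruses and grown with serum, every group carries the label of puromycin selection, and total RNA was sequenced after removal of ribosomal RNA. The groups were Control, whose count columns carry the name shCTR, and DNMT3B knockdown, and the DNMT1 knockdown group entered the estimate of the spread and a direct comparison of the knockdowns. The construct in the Control cells, the number of hairpins per target and whether each line was a pool or a clone are not stated in the labels. The study asked how the transcriptome changes when either enzyme is depleted, since both had been seen to fall under proteasome inhibitors.

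DNMT3B and its relative DNMT3A place methyl groups on cytosines of CpG pairs that carried none, whereas DNMT1, guided by UHRF1, copies existing methylation onto newly made DNA strands. Methylation of a CpG-rich promoter is generally linked to silence of its gene, and DNMT3B is also known to methylate the bodies of transcribed genes. Colorectal tumours are known for methylated promoters that are open in normal colon. DNA methylation itself was not measured in these libraries.

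Total counts were 18.8 to 26.0 M reads in DNMT3B knockdown and 26.9 to 33.7 M reads in Control libraries, so the knockdown libraries were shallower as a group. Levels are given as CPM, read counts set relative to the scaled total of each library, so a level says how a gene compares with itself across libraries and not with genes of other lengths. The labels do not say whether replicates were separate cultures. The p-values then speak only of the spread among these 9 libraries, and that spread could be technical. Epithelial markers were high in both groups: KRT8 stood at 1004 ± 30.5 CPM in Control and 1168 ± 72.6 in DNMT3B knockdown (mean ± SD, n = 3), CDH1 at 147 ± 2.97 and 163 ± 3.52, and the intestinal factor CDX2 at 38.2 ± 1.13 and 40.1 ± 1.92. Other markers of colon epithelium were close to absent, and the identity of the line was not tested, so HT29 stands here for the label. CDX1 and TFF3 had 0 counts in all 6 libraries, and CEACAM5 and CEACAM6 had 2 counts each over the 6 libraries together. In bulk RNA, fewer cells of a type and less RNA per cell cannot be told apart. Markers of other cell types were low: of 8 stromal markers, COL1A2, DCN, LUM and POSTN were at 0 in all 6 libraries, and the summed level was 20.7 to 25.6 CPM in Control and 32.5 to 33.7 with DNMT3B knockdown, mostly from COL1A1. For 9 leukocyte markers the sums were 21.1 to 21.9 and 34.4 to 39.4 CPM, mostly from the lysosomal protein gene CD68, with the T-cell genes CD3D and CD3E and the B-cell gene MS4A1 at or near 0. Sums over 7 endothelial markers were 4.95 to 5.68 and 5.93 to 6.89 CPM.

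The targeted transcript was lowered by about 2-fold. DNMT3B (chr20:32762385-32809356, GRCh38) stood at 60.9, 60.4 and 62.6 CPM in the Control libraries and at 32.8, 27.9 and 30.8 CPM in the DNMT3B knockdown libraries. The groups were far apart, and the highest knockdown library was the first. The log2 fold change was -1.0 ± 0.047 (SE; edgeR adjusted p = 1.49e-17), and the exact permutation test of CPM gave p = 0.1, the smallest that 3 against 3 libraries can give. DNMT3A (chr2:25227874-25342590) was also lower, at 24.3, 23.3 and 26.4 CPM against 35.0, 37.1 and 36.0 CPM, 1.45-fold (adjusted p = 4.07e-10), again with no overlap. DNMT1 was 1.07-fold higher (log2 fold change 0.09 ± 0.032, adjusted p = 0.0171), a call that was lost when Control replicate 1 was left out (0.08 on the log2 scale, adjusted p = 0.0804).

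Genes of the methylation machinery moved in both directions. Of 21 tested writers and targeting partners, a list that includes DNMT3B, DNMT3A and DNMT1 themselves, 12 fell, 4 rose and 5 were not called; over all 16660 genes tested, 47.7% were called at an adjusted p below 0.05, 23.1% higher and 24.6% lower. The median log2 fold change of the list was -0.10, against 0.0023 over all genes tested. UHRF1 fell from 246 ± 8.31 to 194 ± 5.07 CPM (adjusted p = 6.87e-10) and HELLS, a remodelling helicase needed for DNA methylation, from 115 ± 1.23 to 89.5 ± 3.46 CPM (adjusted p = 3.53e-09). Among 20 genes of demethylation enzymes and methyl-CpG readers, 9 rose and 6 fell. TET1, which oxidises methylcytosine, rose 1.29-fold to 38.4 ± 2.57 CPM, and GADD45A, a stress gene linked to demethylation, rose 1.42-fold. MBD3, a subunit of the NuRD repressor complex, fell 1.44-fold, from 196 ± 9.44 to 137 ± 2.32 CPM (adjusted p = 4.06e-13).

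**Figure D1:**
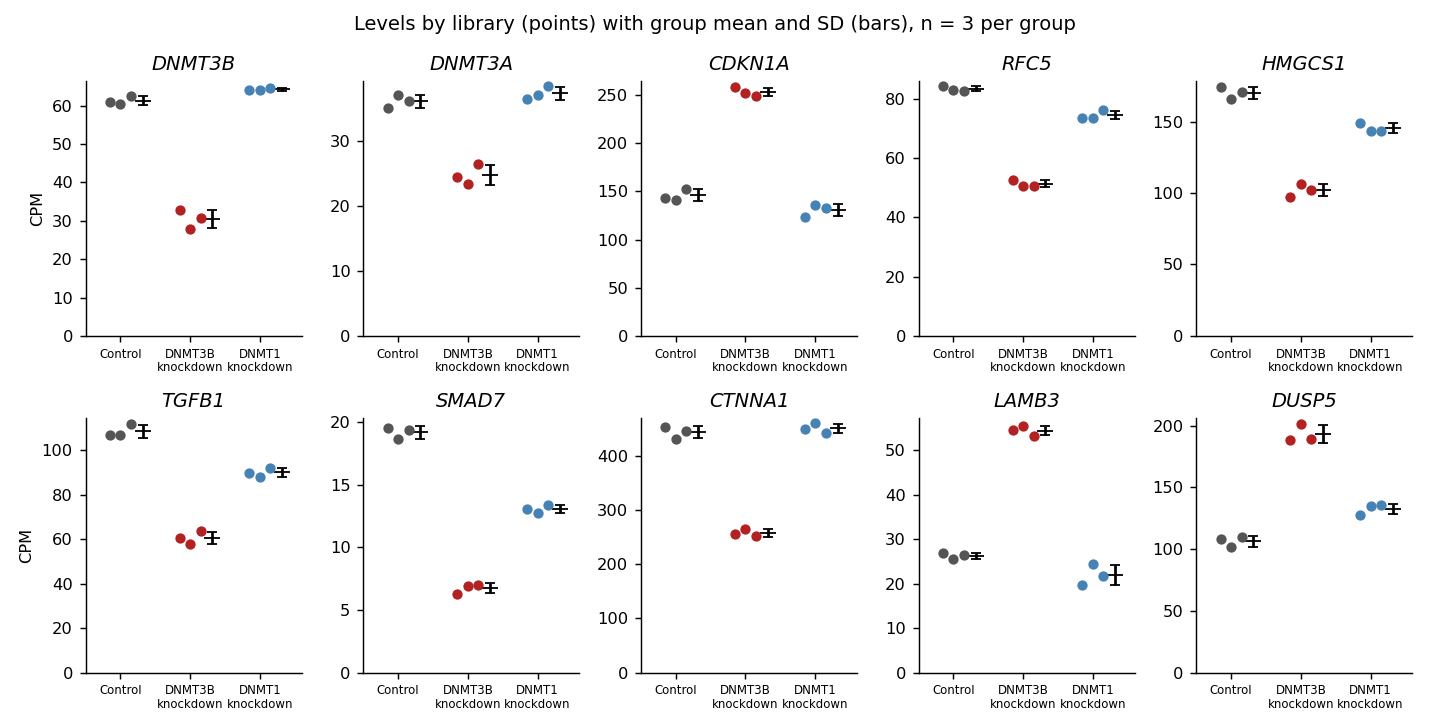
Levels in CPM (y axis, starting at 0) of 10 genes described in the text, in 3 Control, 3 DNMT3B knockdown and 3 DNMT1 knockdown libraries (points), with group mean and SD (bars). In each panel the DNMT3B knockdown points lie apart from the Control points; DNMT3B itself ran from 27.9 to 32.8 CPM against 60.4 to 62.6 CPM.

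Changes were many and mostly small. Of the 16660 genes, 3850 were higher (23.1%) and 4099 lower (24.6%) with DNMT3B knockdown. Counts of list members below are to be read beside these shares. Those against DNMT1 knockdown are to be read beside 20.9% higher and 24.3% lower. The median size among called genes was 0.272 on the log2 scale, and 48.0% of called genes differed by less than 1.2-fold. Only 1253 genes (7.52%) were called and differed by at least 1.5-fold, 888 higher (5.33%) and 365 lower (2.19%). The 3 libraries of one group did not overlap the 3 of the other for 9020 genes (54.1%).

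Rises and falls were found at different levels of expression. Among 2027 genes under 1 CPM in Control, 22.1% rose by at least 1.5-fold and 1.92% fell by that much. Among 5854 genes at 20 to under 100 CPM, 0.666% rose and 1.64% fell by at least 1.5-fold, while calls of any size were 22.1% higher and 36.2% lower. A gene with few counts in Control could enter the test through a high knockdown group, and a fall from a low level is hard to call, so the lowest class favours rises; the classes also share the Control libraries with the comparison. Protein-coding genes (14153 tested) were called higher in 24.2% and lower in 27.3% of cases. Long noncoding RNAs (1800 tested) were called higher in 16.4% and lower in 8.50%. Calls were spread over all chromosomes, with the share of genes called higher running from 16% on chromosome 13 to 27.5% on chromosome 11.

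**Figure D2:**
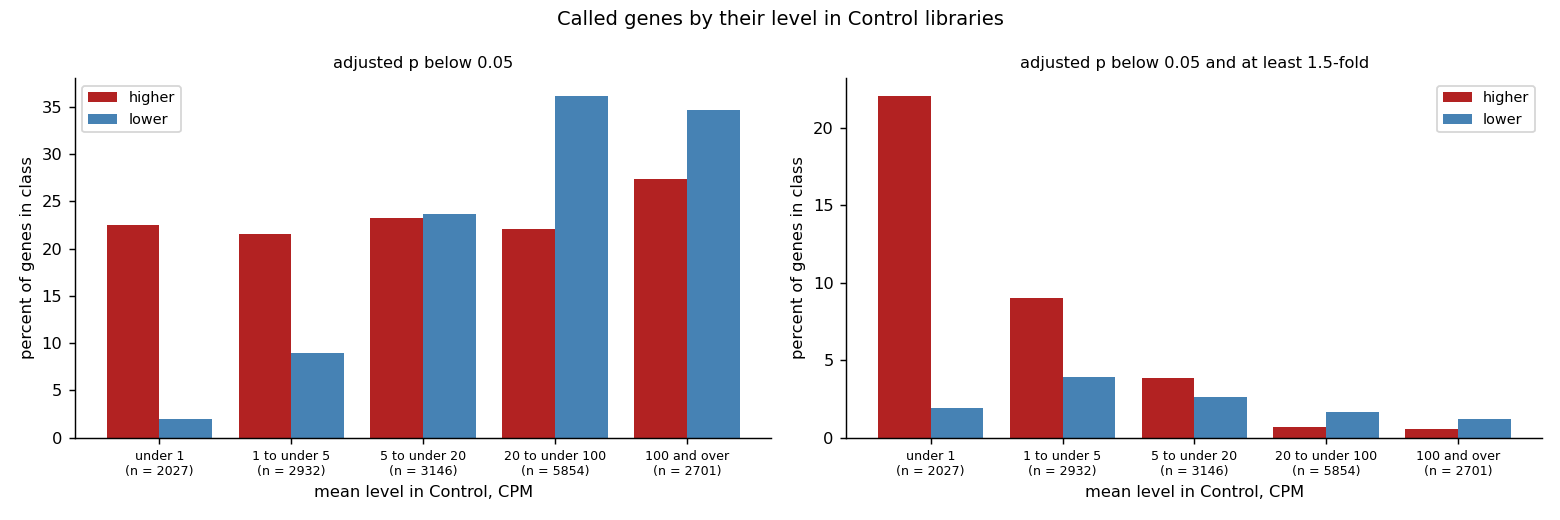
Percent of genes called higher (red) or lower (blue) with DNMT3B knockdown (y axis) in 5 classes of mean Control level in CPM (x axis, number of genes in brackets), for calls of any size (left) and calls of at least 1.5-fold (right). Falls of any size are most frequent from 20 CPM upward, and rises of at least 1.5-fold are most frequent under 1 CPM.

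Promoters of 6 genes with large changes held 11 to 28 CpG pairs for the rises and 2 to 32 for the falls. They are shown because CpG density bears on how a promoter can be methylated, and no methylation value accompanies them. As single genes they do not describe large changes as a set, whose CpG numbers are given after the sequences. The first 3 belong to the largest rises and the last 3 to the largest falls that had an entry in the RefSeq promoter table (GRCh38.p14). Each is the 250 bases before the start site given there, 5′ to 3′ on the gene's strand, with CpG pairs in capitals. CLSTN2, a calsyntenin, rose from 0.462 ± 0.110 to 17.7 ± 0.671 CPM, TGFB2, a TGF-beta ligand, from 1.76 ± 0.432 to 17.7 ± 0.353, and B3GALT5, a galactosyltransferase of Lewis-type glycans, from 0.668 ± 0.168 to 5.98 ± 0.423. With DNMT1 knockdown CLSTN2 was higher still, at 51.4 ± 0.264 CPM.
CLSTN2, chr3:139934935-139935184, plus strand, 27 CpG: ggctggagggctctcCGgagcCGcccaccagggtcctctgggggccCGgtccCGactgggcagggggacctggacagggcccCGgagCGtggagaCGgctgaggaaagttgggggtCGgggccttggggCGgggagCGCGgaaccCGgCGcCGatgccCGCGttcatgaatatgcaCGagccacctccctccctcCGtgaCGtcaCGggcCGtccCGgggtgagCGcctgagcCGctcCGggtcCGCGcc
TGFB2, chr1:218345086-218345335, plus strand, 11 CpG: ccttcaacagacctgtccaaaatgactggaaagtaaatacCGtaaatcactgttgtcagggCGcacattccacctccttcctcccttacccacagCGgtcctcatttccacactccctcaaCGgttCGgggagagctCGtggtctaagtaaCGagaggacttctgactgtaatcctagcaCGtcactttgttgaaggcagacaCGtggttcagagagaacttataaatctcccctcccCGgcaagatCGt
B3GALT5, chr21:39612690-39612939, plus strand, 28 CpG: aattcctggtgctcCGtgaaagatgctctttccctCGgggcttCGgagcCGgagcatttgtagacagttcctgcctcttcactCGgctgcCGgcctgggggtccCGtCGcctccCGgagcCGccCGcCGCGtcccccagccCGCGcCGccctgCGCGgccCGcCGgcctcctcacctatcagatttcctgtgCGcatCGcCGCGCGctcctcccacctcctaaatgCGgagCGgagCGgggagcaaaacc
SAMD11, chr1:925481-925730, plus strand, 32 CpG: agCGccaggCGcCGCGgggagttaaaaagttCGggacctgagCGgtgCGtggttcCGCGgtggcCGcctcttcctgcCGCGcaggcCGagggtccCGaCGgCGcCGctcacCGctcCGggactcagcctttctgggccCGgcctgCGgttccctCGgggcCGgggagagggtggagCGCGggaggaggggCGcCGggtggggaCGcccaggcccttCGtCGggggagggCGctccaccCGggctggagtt
CD36, chr7:80601957-80602206, plus strand, 2 CpG: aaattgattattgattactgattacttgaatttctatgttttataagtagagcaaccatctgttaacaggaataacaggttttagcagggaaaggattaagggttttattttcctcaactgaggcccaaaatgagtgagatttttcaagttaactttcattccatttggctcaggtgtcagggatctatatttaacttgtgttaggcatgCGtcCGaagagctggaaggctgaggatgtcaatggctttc
SMAD7, chr18:48950966-48951215, minus strand, 13 CpG: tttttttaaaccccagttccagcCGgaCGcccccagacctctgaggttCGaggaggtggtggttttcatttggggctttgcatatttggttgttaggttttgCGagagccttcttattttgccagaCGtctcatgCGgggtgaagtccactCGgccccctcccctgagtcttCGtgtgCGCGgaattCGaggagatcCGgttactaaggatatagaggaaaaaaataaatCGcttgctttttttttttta
SAMD11 fell from 7.88 ± 0.622 to 2.58 ± 0.0470 CPM, CD36, a fatty acid receptor, from 3.58 ± 0.234 to 1.2 ± 0.468, and SMAD7, an inhibitor of TGF-beta signalling, from 19.2 ± 0.496 to 6.72 ± 0.403.

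Across the 11524 tested protein-coding genes with a promoter in that table (81.4%), the median number of CpG pairs in these 250 bases was 20. It was 20 for the 2773 genes called higher, 22 for the 3183 called lower and 20 for the 5568 not called. Promoters with fewer than 5 CpG pairs made up 12.4% of genes called higher, 5.53% of genes called lower and 11.7% of genes not called. Among genes at 1 CPM and over in Control, 840 promoters with fewer than 5 CpG pairs went with 29.8% of genes higher and 20.4% lower, and 5874 with 20 or more went with 22.5% higher and 32.4% lower. For rises of at least 1.5-fold, only 505 of 687 protein-coding genes (73.5%) had a promoter in the table. Those 505 had a median of 11 CpG pairs, and 31.5% held fewer than 5, against 10.2% of all 11524. For 240 falls of that size the values were 19.5 and 15.4%. Genes without a promoter in the table could differ, and many rises of that size were under 1 CPM in Control, so no conclusion is drawn for all of them.

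Targets of p53 in arrest and in repair had the highest shares of rises among the 77 gene lists. The transcription factor p53 induces genes that stop the cell cycle. Of 17 tested targets of arrest and feedback, 14 rose and 0 fell (0 also at an unadjusted p below 0.05, and with DESeq2 and limma-voom), with a median log2 fold change of 0.42. CDKN1A (chr6:36676463-36687332), which encodes the CDK inhibitor p21, stood at 144, 141 and 153 CPM in Control and 258, 253 and 249 with DNMT3B knockdown. Every knockdown library was above every Control library, and the log2 fold change was 0.79 ± 0.037 (adjusted p = 8.54e-18). PLK2, a stress-induced kinase, rose 2.24-fold, from 43.6 ± 1.62 to 97.8 ± 1.92 CPM. GDF15, a secreted stress factor, rose 1.67-fold and MDM2, the ubiquitin ligase that degrades p53, 1.34-fold.

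Of 17 tested p53 targets in repair and metabolism, 13 rose and 1 fell. They included DDB2, which recognises UV damage (1.39-fold, adjusted p = 6.12e-10), FDXR, a mitochondrial reductase (1.32-fold), and POLH, a translesion polymerase (1.24-fold). Death genes moved less uniformly: 7 of 16 rose and 2 fell, or 1 without Control replicate 1 or 3 or DNMT3B knockdown replicate 1 or 3. BAX, which opens the outer mitochondrial membrane, rose 1.37-fold and the death receptor gene FAS 1.28-fold, while the death receptor gene TNFRSF10A fell 1.23-fold. Against DNMT1 knockdown libraries, 15 of the 17 arrest and feedback targets were higher and 1 lower with DNMT3B knockdown, where 20.9% and 24.3% of all tested genes were called higher and lower in that comparison. CDKN1A was 1.94-fold and MDM2 1.80-fold higher than with DNMT1 knockdown (adjusted p = 3.15e-19 for both).

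**Figure D3:**
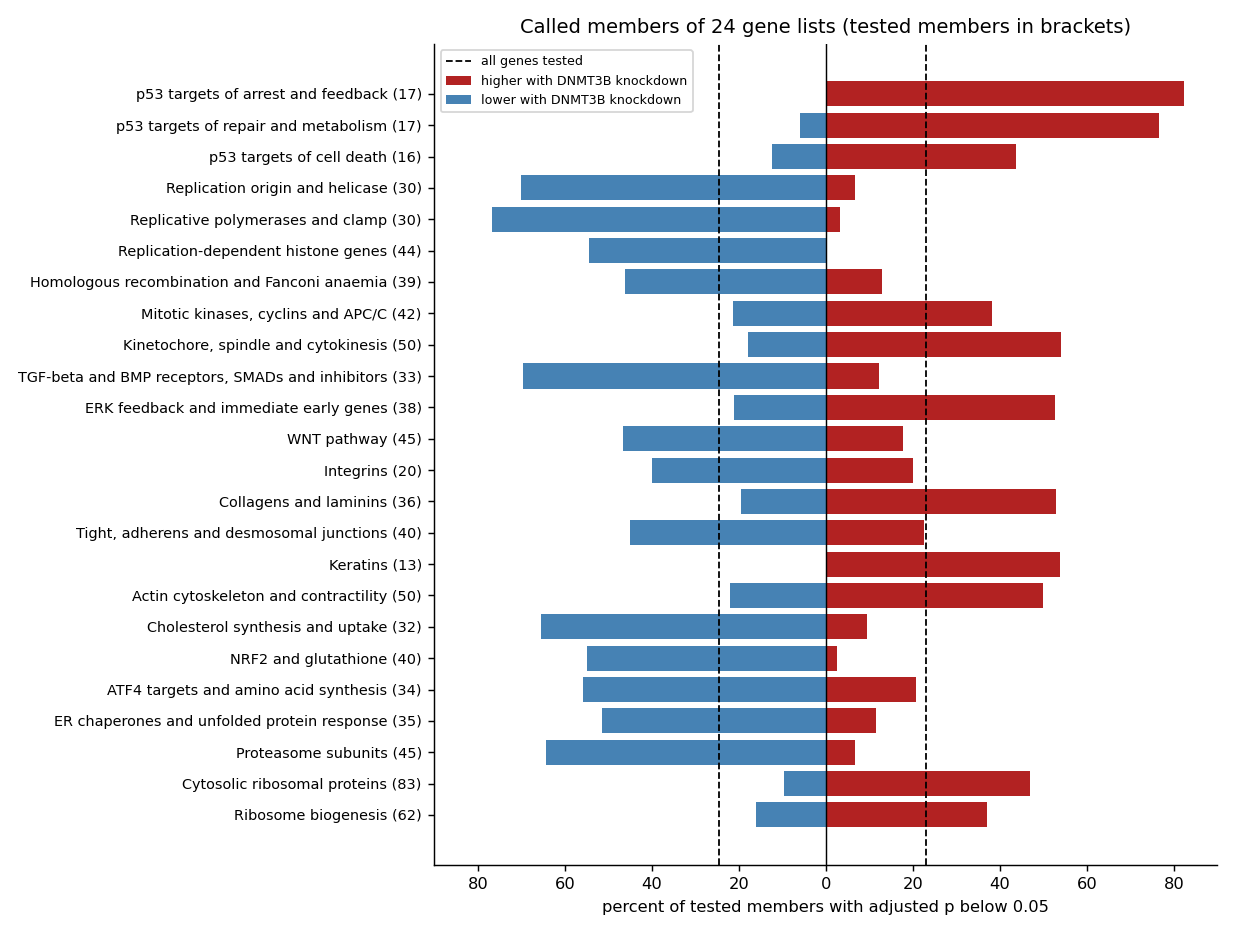
Percent of tested members called higher (red, to the right) or lower (blue, to the left) with DNMT3B knockdown against Control in 24 gene lists, with the number tested in brackets; dashed lines mark the shares over all genes tested, 23.1% higher and 24.6% lower. Replication, receptor and SMAD, cholesterol and proteasome lists extend mainly to the left, and p53, collagen and laminin, keratin and ribosomal protein lists mainly to the right.

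Genes of DNA replication fell while many genes of mitosis rose. Of 30 tested replicative polymerase and clamp genes, 23 fell and 1 rose (median -0.18). RFC5 (chr12:118016703-118041448), a subunit of the complex that loads the PCNA clamp, stood at 84.2, 82.9 and 82.7 CPM in Control and 52.6, 50.7 and 50.5 with DNMT3B knockdown. The 2 groups were separated by about 30 CPM, and the fall was 1.62-fold (adjusted p = 7.77e-16). RPA2, which coats single-stranded DNA, fell 1.48-fold, and PCNA, the clamp itself, 1.31-fold from 127 ± 5.01 to 97.8 ± 5.32 CPM. Of 30 origin and helicase genes, 21 fell, among them the helicase subunit MCM5 (1.19-fold), the initiation factor MCM10 (1.2-fold) and GINS1 (1.25-fold). In that list 2 rose, or 1 without Control replicate 1 or 2 or DNMT3B knockdown replicate 1, and with DESeq2; ORC3, an origin recognition subunit, was the larger (1.30-fold).

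Replication-dependent histone genes, whose mRNAs lack a poly(A) tail and were kept by this library method, went the same way: 24 of 44 fell and 0 rose (0 also at an unadjusted p below 0.05, and with DESeq2 and limma-voom). H4C1 fell from 43.1 ± 3.56 to 24.8 ± 3.45 CPM and H3C13 from 75.6 ± 6.37 to 48.7 ± 6.22; such genes have near-identical copies, so the split of reads among them is uncertain. In nucleotide and folate synthesis 15 of 35 fell (42.9%, against 24.6% of all genes tested) and 8 rose (22.9%, near the 23.1%). The rises numbered 5 without Control replicate 2 or DNMT3B knockdown replicate 2. RRM2, the small subunit of ribonucleotide reductase, fell 1.57-fold, whereas PRPS1, which makes the ribose donor of nucleotides, rose 1.75-fold.

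Repair by homologous recombination and the Fanconi anaemia genes had 18 of 39 lower and 5 higher. CHEK1, the kinase that restrains the cycle when replication stalls, fell from 71.1 ± 1.42 to 54.6 ± 0.866 CPM (adjusted p = 1.97e-09), and BARD1, the partner of BRCA1, fell 1.33-fold. RAD51B, a recombination gene, rose 1.74-fold, from 12.1 ± 0.455 to 21.2 ± 1.88 CPM. MSH6 (chr2:47783145-47810101), which recognises base mismatches, stood at 221, 221 and 217 CPM in Control and 149, 151 and 148 with DNMT3B knockdown. All 3 knockdown libraries were lower, by 1.47-fold (adjusted p = 3.66e-15). MSH6 is from a separate list, mismatch and excision repair, and had the lowest log2 fold change in it. Of the 21 tested genes of that list 6 fell and 4 rose (median -0.042), so MSH6 does not stand for the list.

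In contrast to replication, 27 of 50 kinetochore, spindle and cytokinesis genes rose and 9 fell (median 0.11), each by less than 1.5-fold. KIF20A, a kinesin of cytokinesis, stood at 119.7, 122 and 121 CPM in Control and 156, 152 and 154 with DNMT3B knockdown. The groups did not overlap, and the rise was 1.27-fold (adjusted p = 2.28e-10). CENPF, a kinetochore protein, rose from 318 ± 16.8 to 403 ± 8.47 CPM. Of 25 tested cohesin and condensin genes, 6 rose (24%, against 23.1% of all genes tested) and 5 fell (20%, against 24.6%). The median of that list was -0.032. One of its rises was SGO2, which protects centromeric cohesion, at 1.42-fold. Among 42 mitotic kinase, cyclin and anaphase-promoting complex genes 16 rose (38.1%, against 23.1% of all genes tested) and 9 fell (21.4%, against 24.6%). Their median was 0.034. CCNB2, a B-type cyclin, was 1.27-fold higher and the S-phase factor gene E2F1 1.37-fold lower. MKI67, the gene of the proliferation antigen Ki-67, rose from 1535 ± 82.4 to 1906 ± 77.0 CPM (adjusted p = 7.47e-08). Against DNMT1 knockdown, 36 of the 50 kinetochore and spindle genes were higher and 2 lower with DNMT3B knockdown. Over all genes tested, 20.9% were higher and 24.3% lower in that comparison.

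**Figure D4:**
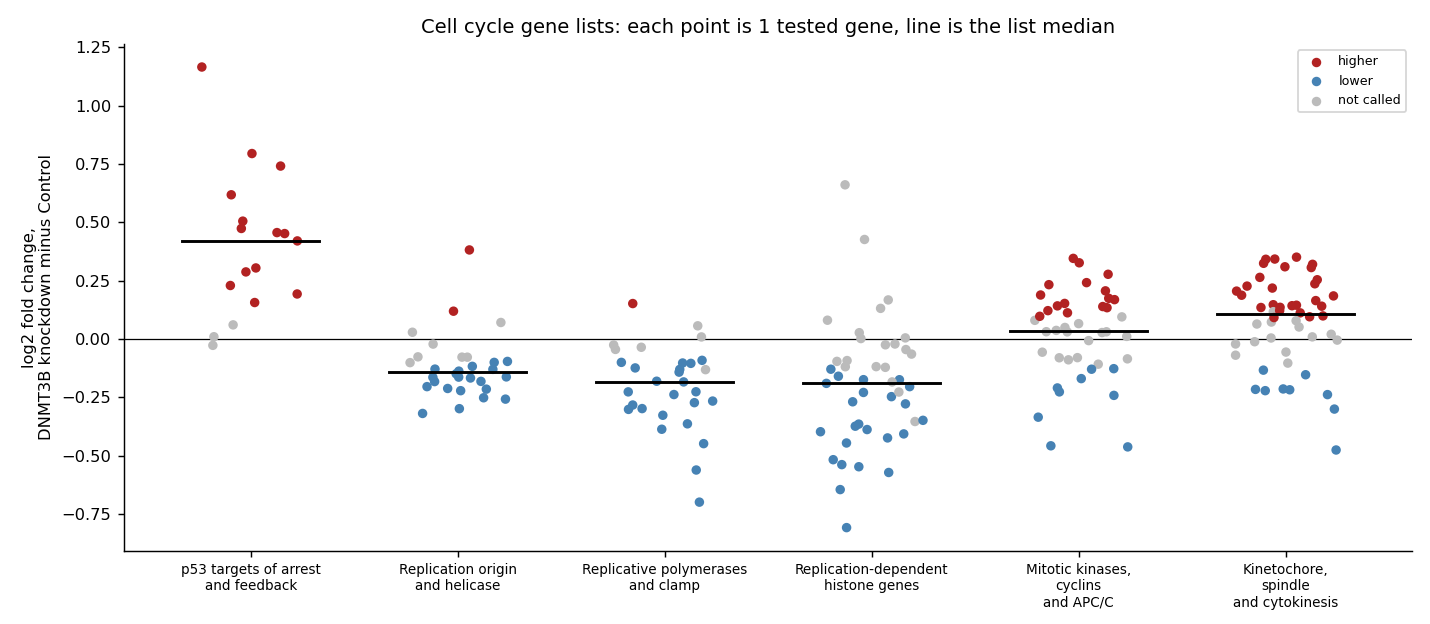
Log2 fold change of DNMT3B knockdown against Control (y axis) for every tested gene of 6 lists (x axis), coloured by call (red higher, blue lower, grey not called), with the list median as a black line. The 3 replication lists lie mostly below 0 (medians -0.14, -0.18 and -0.19), and the p53 and kinetochore lists mostly above it (0.42 and 0.11).

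TGF-beta and BMP signalling held genes that rose and genes that fell. These ligands act through paired receptor kinases that activate SMAD proteins, and SMAD6, SMAD7, SKI and SKIL restrain the signal. Of 33 tested receptors, SMADs and inhibitors, 23 fell and 4 rose (median -0.18). SMAD7 (chr18:48919853-48950965) stood at 19.6, 18.6 and 19.4 CPM in Control and at 6.26, 6.89 and 7.01 CPM with DNMT3B knockdown. Its knockdown libraries were all below 40% of the Control mean, and the fall was 2.86-fold (log2 fold change -1.52 ± 0.073, adjusted p = 2.03e-17). SKIL fell 1.80-fold, from 32.9 ± 2.62 to 18.4 ± 1.33 CPM. SMAD6, which mainly restrains BMP signals, fell 1.72-fold. The activin receptor gene ACVR2B fell 1.46-fold.

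The type 2 TGF-beta receptor gene went the other way: TGFBR2 (chr3:30606356-30694142) stood at 23.9, 23.1 and 24.1 CPM in Control and 37.2, 38.3 and 38.2 with DNMT3B knockdown, 1.6-fold higher without overlap (adjusted p = 4.35e-13). Chosen after their values were seen, TGFBR1, the type 1 receptor gene, fell 1.45-fold from 62.4 ± 2.72 to 43.0 ± 2.27 CPM, and SMAD3, a signal-carrying SMAD, rose 1.33-fold from 148 ± 3.30 to 197 ± 3.55. Of 15 tested ligands 4 rose and 4 fell, 26.7% each way, against 23.1% higher and 24.6% lower over all genes tested. TGFB1 (chr19:41330323-41353922) fell from 107, 107 and 112 CPM in Control to 60.6, 57.9 and 63.5 CPM, 1.78-fold (adjusted p = 1.52e-17), while TGFB2 libraries ran at 1.88, 2.12 and 1.28 CPM in Control and 17.3, 18 and 17.8 with DNMT3B knockdown. So the 2 ligands changed in opposite directions, each without overlap. BMP1, a protease that matures collagens, rose 1.33-fold, and the ligand gene BMP8B fell 1.32-fold. Among 17 targets 4 rose (23.5%) and 6 fell (35.3%). These falls include SMAD6, SMAD7 and SKIL, which were also counted among the receptors, SMADs and inhibitors.

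Receptor tyrosine kinases activate ERK through RAS, and ERK induces both immediate early transcription factors and phosphatases that feed back on it. Of 38 feedback and immediate early genes, 20 rose and 8 fell (median 0.19). DUSP5 (chr10:110497907-110511533), a nuclear ERK phosphatase gene, stood at 108, 102 and 109.9 CPM in Control and 188, 202 and 189.6 with DNMT3B knockdown. The groups were well apart, at 1.81-fold (adjusted p = 2.44e-18). The AP-1 subunit genes FOSL2 and FOSL1 rose 1.79-fold and 1.41-fold, and the ephrin receptor gene EPHA2 1.39-fold. Chosen after their values were seen, the stress factor ATF3 rose 1.76-fold, whereas the cytoplasmic ERK phosphatase DUSP6, the feedback inhibitor SPRY4 and the ETS factor ETV4 fell 1.29-fold, 1.28-fold and 1.26-fold.

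Receptor tyrosine kinase genes were called higher in 6 of 28 cases (21.4%, against 23.1% of all genes tested) and lower in 10 (35.7%, against 24.6%). MET (chr7:116672196-116798377), the receptor of hepatocyte growth factor, stood at 188, 185 and 182 CPM in Control and 338, 329.5 and 319 with DNMT3B knockdown, 1.78-fold higher (adjusted p = 3.91e-19). EGFR (chr7:55019017-55211628), the epidermal growth factor receptor, stood at 221, 223 and 211 CPM and 161, 154 and 157 CPM, 1.39-fold lower (adjusted p = 5e-13). Neither gene's groups overlapped. The insulin receptor gene INSR fell 1.34-fold and FGFR3, a fibroblast growth factor receptor, 1.42-fold. Of 31 growth factor and regulator genes 4 rose and 10 fell: AREG, an EGFR ligand, rose 1.6-fold to 83.6 ± 0.772 CPM, and the hormone-like FGF19 fell 1.77-fold to 31.1 ± 0.967 CPM.

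WNT pathway genes had 21 of 45 lower and 8 higher (5 without DNMT3B knockdown replicate 1, and with DESeq2). The falls included the co-receptor LRP5 (1.38-fold), the R-spondin receptor LGR4 (1.61-fold), the receptor FZD1 (1.50-fold) and WLS, which carries WNT proteins to the surface (1.34-fold). AXIN2, a feedback target of the pathway chosen after its values were seen, fell from 56.0 ± 3.01 to 42.3 ± 1.67 CPM (adjusted p = 1.18e-08). In the Notch pathway 15 of 35 fell (42.9%, against 24.6% of all genes tested) and 11 rose (31.4%, against 23.1%). The receptor NOTCH3 was 1.50-fold lower and the coactivator MAML2 2.78-fold higher. In the Hippo pathway 12 of 27 rose (44.4%, against 23.1% of all genes tested) and 8 fell (29.6%, against 24.6%). The coactivator YAP1 fell 1.26-fold, while F3, the tissue factor gene that YAP can induce, rose from 16.6 ± 0.309 to 40.6 ± 3.10 CPM (adjusted p = 1.71e-18).

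Of 36 tested collagen and laminin genes, 19 rose and 7 fell (median 0.26), 9 of the rises being at least 1.5-fold. The summed stromal markers were also higher with the knockdown, at 32.5 to 33.7 against 20.7 to 25.6 CPM, with 1 of the 2 tested markers called higher (COL1A1) and COL1A2, DCN, LUM and POSTN at 0; their part in the collagen counts was not tested. LAMB3 (chr1:209614870-209652425), a chain of laminin-332 that anchors epithelial cells, stood at 26.9, 25.5 and 26.4 CPM in Control and 54.7, 55.5 and 53.3 with DNMT3B knockdown. The knockdown libraries were all about 2-fold above Control (log2 fold change 1.05 ± 0.052, adjusted p = 4.42e-17). LAMA3 (chr18:23689453-23955066), another chain of that laminin, rose from 11.1 ± 0.611 to 24.2 ± 1.49 CPM (adjusted p = 4.51e-15). LAMA4 rose 2.96-fold and HSPG2, the perlecan gene, 1.57-fold. Against DNMT1 knockdown, 13 genes of the list were higher and 11 lower. LAMB3 was 2.48-fold and LAMA3 1.86-fold higher (adjusted p = 1.49e-18 and 1.57e-12). LAMA4 was 1.61-fold lower than with DNMT1 knockdown (adjusted p = 2.98e-09), and HSPG2 did not pass the test (adjusted p = 0.678).

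Among 20 integrin genes 8 fell (40%, against 24.6% of all genes tested) and 4 rose (20%, near the 23.1%). ITGB8 fell 1.85-fold from 15.8 ± 0.379 to 8.50 ± 0.0441 CPM; it pairs with ITGAV, which fell 1.44-fold, to release active TGF-beta. ITGB5 fell 1.37-fold and ITGB1, the most widely shared beta chain, 1.31-fold. Among 30 matrix proteases and inhibitors 7 rose (23.3%, near the 23.1% of all genes tested) and 13 fell (43.3%, against 24.6%). The membrane collagenase MMP14 was 1.67-fold lower and the protease inhibitor SPINT2 1.44-fold lower.

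Of 40 tested junction genes 18 fell and 9 rose. CTNNA1 (chr5:138753425-138935034), the alpha-catenin that links cadherins to actin, stood at 454, 432 and 447 CPM in Control and 256, 266 and 253 with DNMT3B knockdown. This was 1.72-fold lower (adjusted p = 1.12e-18), and no library of one group came near the other. The tight junction genes CLDN3 and F11R fell 1.6-fold and 1.26-fold, and EPCAM, an epithelial adhesion gene, 1.22-fold. CDH1, which encodes E-cadherin and was named with its values known, was 1.11-fold higher (adjusted p = 0.000439). Compared with DNMT1 knockdown, 24 of the 40 junction genes were lower and 7 higher with DNMT3B knockdown, CTNNA1 by 1.75-fold (adjusted p = 1.28e-18).

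Of 13 tested keratins 7 rose and 0 fell (0 also at an unadjusted p below 0.05, and with DESeq2 and limma-voom); 4 rose when a mean of at least 2 CPM was required. KRT23 rose 1.63-fold from 17.3 ± 0.838 to 28.4 ± 1.95 CPM, KRT8 1.16-fold, and the low KRT7 and KRT20 from 1.37 ± 0.0728 to 2.95 ± 0.213 CPM and from 1.03 ± 0.142 to 2.02 ± 0.310 CPM. Of 50 actin and contractility genes 25 rose and 11 fell. LIMA1, which crosslinks actin filaments, rose from 74.9 ± 2.63 to 143 ± 2.31 CPM (1.90-fold), and PDLIM5, a Z-disc and stress fibre adaptor, 1.92-fold. MSN, the moesin gene that ties actin to the membrane, fell 1.34-fold.

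The genes of the rises ranked 9 to 20 by size all stood at 10.8 CPM or less in Control. EMP1 (chr12:13196726-13219941), an epithelial membrane protein, stood at 11.3, 11.2 and 9.85 CPM in Control and 44.9, 46.9 and 45.5 with DNMT3B knockdown. All 3 knockdown libraries were about 4-fold higher (log2 fold change 2.08 ± 0.057, adjusted p = 9.69e-24). GALNT5, which starts mucin-type O-glycans, rose from 3.90 ± 0.302 to 20.6 ± 0.715 CPM, and MUC16, a transmembrane mucin known as CA125, from 0.757 ± 0.191 to 5.07 ± 0.541 CPM. CA12, a carbonic anhydrase, rose 3.99-fold and CPA4, a carboxypeptidase, 4.28-fold. The others were CYP4F12 (7.56-fold), MYPN (5.83-fold), ALPK2 (4.51-fold), MAT1A (4.16-fold), the iodide transporter SLC5A5 (3.79-fold), the kainate receptor GRIK4 (3.79-fold) and KRTAP2-3 (5.5-fold), whose close copies make its value uncertain. Outside those ranks, ABCA12, a lipid transporter of the skin barrier, rose from 4.11 ± 0.405 to 14.9 ± 1.05 CPM, and KLF4, a differentiation factor of epithelia, from 24.6 ± 0.857 to 46.9 ± 2.47 CPM.

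The falls ranked 9 to 20 included well-expressed genes. BCL6 (chr3:187721377-187745468), a transcriptional repressor, stood at 82.8, 87.8 and 85.3 CPM in Control and 43.0, 39.1 and 40.4 with DNMT3B knockdown. CDKN2A (chr9:21967752-21995324), which encodes the p16 and ARF proteins, whose transcripts these counts do not separate, stood at 64.5, 59.5 and 66.4 CPM and 29.1, 28.3 and 29.7 CPM. Neither pair of groups overlapped, and the falls were 2.08-fold and 2.19-fold (adjusted p = 3.3e-19 and 5.9e-18). PM20D2, a peptidase gene, fell from 126 ± 1.56 to 63.1 ± 1.96 CPM. The remaining falls were SERTAD4 (2.37-fold), ZMAT5 (2.36-fold), the coronin CORO2B (2.29-fold), the adaptor SHC2 (2.26-fold), WWC3 (2.23-fold), PRRG4 (2.23-fold), the small GTPase RASD2 (2.03-fold), the reductase CBR3 (2.00-fold) and DNMT3B itself.

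Most cholesterol synthesis genes fell. Of 32 tested genes of synthesis and uptake, 21 fell and 3 rose, or 1 without Control replicate 3 or DNMT3B knockdown replicate 2, and with DESeq2 (median -0.28). HMGCS1 (chr5:43287470-43313412), an early synthase of the pathway, stood at 174, 166 and 171 CPM in Control and 97.5, 106 and 102 with DNMT3B knockdown. The groups did not overlap, and the fall was 1.67-fold (adjusted p = 4.66e-17). CYP51A1, a sterol demethylase, fell 1.36-fold, FDFT1, squalene synthase, 1.27-fold, and SREBF2, the factor that induces the pathway, from 559.7 ± 9.71 to 424 ± 10.5 CPM (adjusted p = 1.94e-11). Fatty acid and lipid droplet genes had 15 of 39 lower and 6 higher; the droplet coat gene PLIN3 fell 1.72-fold and the desaturase FADS1 1.48-fold.

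Falls outnumbered rises in the NRF2, ATF4 and endoplasmic reticulum chaperone lists. Of 40 genes of NRF2 and glutathione, which protect against oxidants, 22 fell and 1 rose (2 without DNMT3B knockdown replicate 1 or 2). NQO1, a quinone reductase, fell from 441 ± 13.3 to 279 ± 12.5 CPM (adjusted p = 1.71e-15), PRDX6, a peroxiredoxin, 1.47-fold, and FTH1, ferritin heavy chain, 1.44-fold. Of 34 ATF4 and amino acid synthesis genes 19 fell and 7 rose: the glutamine transporter SLC1A5 fell 1.65-fold and the serine synthesis gene PSAT1 1.40-fold, while DDIT4, an inhibitor of mTORC1, rose 1.38-fold. In the ATF4 list, 16 genes were higher and 5 lower than with DNMT1 knockdown.

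Of 35 endoplasmic reticulum chaperone genes 18 fell and 4 rose (2 without Control replicate 1 or 3 or DNMT3B knockdown replicate 1 or 3, and with DESeq2). Cytosolic chaperones had 12 of 38 lower, or 7 without Control replicate 3 or DNMT3B knockdown replicate 1, and 6 higher. CANX, the calnexin gene, fell from 894 ± 10.7 to 651 ± 18.2 CPM and SDF2L1 1.67-fold. Proteasome subunits, which degrade ubiquitin-tagged proteins, fell in 29 of 45 cases and rose in 3 (median -0.13). PSMB5 (chr14:23025851-23035220), the catalytic subunit that proteasome inhibitor drugs bind, stood at 121, 112 and 119 CPM in Control and 65.3, 80.2 and 69.8 with DNMT3B knockdown, 1.64-fold lower (adjusted p = 5.88e-13). Its groups did not overlap, although the second knockdown library was above the other two. PSMB9, an immunoproteasome subunit, rose from 1.59 ± 0.0731 to 3.91 ± 0.672 CPM.

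Rises outnumbered falls among cytosolic ribosomal proteins, ribosome biogenesis genes and initiation factors, each rise being below 1.5-fold, but not among mitochondrial ribosomal proteins (15 higher and 20 lower of 78) or aminoacyl-tRNA synthetases (8 higher and 9 lower of 37). Of 83 cytosolic ribosomal protein genes 39 rose and 8 fell (median 0.10); the falls numbered 16 without DNMT3B knockdown replicate 2, 4 without DNMT3B knockdown replicate 1 and 5 without Control replicate 3, and 4 with DESeq2. RPL37 stood at 221, 238 and 236 CPM in Control and 303, 329 and 322 with DNMT3B knockdown, the largest fold among the 4 ribosomal protein genes the naming rule took (1.37-fold, adjusted p = 1.35e-11). These genes have many processed copies, so their counts are uncertain. Among 62 ribosome biogenesis genes 23 rose and 10 fell against Control, and 43 were higher and 1 lower than with DNMT1 knockdown. UBTF, which opens ribosomal RNA genes, fell 1.24-fold. Translation initiation factors had 17 of 53 higher and 10 lower, with EIF3D 1.25-fold higher, and EIF1, which guards start codon choice, lower by 1.55-fold from 344 ± 8.07 to 222 ± 18.7 CPM.

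Of 48 splicing genes, 15 rose (31.25%, against 23.1% of all genes tested) and 11 fell (22.9%, against 24.6%), with a median of 0.0085. The falls numbered 7 without DNMT3B knockdown replicate 1. SF3A1 and SF3A2, subunits of the U2 particle that binds the branch point, rose 1.34-fold and 1.33-fold, and SNRNP200 and PRPF8, core proteins of the spliceosome, were among the 10 largest rises in CPM (762 ± 12.6 to 1007 ± 37.7, and 1266 ± 15.6 to 1550.0 ± 21.2). The other genes of that kind were PABPC1, the poly(A)-binding protein (2546 ± 41.7 to 3227 ± 135 CPM), the elongation factor EEF2, fatty acid synthase FASN, the chromatin protein HMGA1, the noncoding RNA RN7SK, MKI67, actin ACTB and TRIB1, an adaptor of protein degradation (398 ± 2.67 to 695 ± 8.72 CPM). The 10 largest falls in CPM were led by the atypical cadherin FAT1 (4195 ± 91.8 to 3778 ± 115 CPM, 1.11-fold). They also held CANX, the amino acid transporters SLC38A2 and SLC1A5, DCBLD2, CTNNA1, ITPRID2, NQO1, the clathrin heavy chain CLTC and RHOBTB3 (432 ± 8.35 to 273 ± 2.84 CPM).

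Of 72 histone-modifying genes 26 were higher (36.1%, against 23.1% of all genes tested) and 16 lower (22.2%, against 24.6%). HDAC4, a histone deacetylase of class IIa, fell from 49.7, 48.9 and 49.1 CPM in Control to 28.6, 28.5 and 27.0 CPM (1.76-fold, adjusted p = 8.58e-16). EP300, a histone acetyltransferase, rose 1.35-fold and DOT1L, which methylates histone H3 in transcribed genes, 1.27-fold. KDM7A, a histone demethylase, fell 1.38-fold. With DNMT1 knockdown HDAC4 stood at 51.5 ± 0.489 CPM, and the knockdowns differed by 1.84-fold (adjusted p = 2.87e-16).

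The 2 knockdowns were compared directly because each shares the Control libraries. Of the 16660 genes, 7534 (45.2%) differed between DNMT3B and DNMT1 knockdown, 3487 higher (20.9%) and 4047 lower (24.3%) with DNMT3B knockdown. MAT1A, which makes the methyl donor S-adenosylmethionine, stood at 5.61, 5.71 and 5.52 CPM with DNMT3B knockdown and 1.65, 1.45 and 1.33 CPM with DNMT1 knockdown, against 1.34, 1.19 and 1.48 CPM in Control. Only the DNMT3B knockdown libraries were high, 3.78-fold above those of DNMT1 knockdown (adjusted p = 5.23e-13). MUC16, TMEM145, SUN3, ZBED2 and MGAM, an intestinal maltase, were 3.36-fold, 3.12-fold, 3.11-fold, 2.95-fold and 2.72-fold higher than with DNMT1 knockdown.

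Other genes were lower with DNMT3B than with DNMT1 knockdown. SMAD6 stood at 7.41, 7.32 and 6.89 CPM with DNMT3B knockdown and 21.3, 22.9 and 21.9 CPM with DNMT1 knockdown, below and above the Control values of 11.8, 12.8 and 12.7 CPM. The knockdowns differed by 3.06-fold (adjusted p = 7.85e-18). S100A4, a calcium-binding protein of motile cells, and AQP3, a water and glycerol channel, had the same opposite pattern, at 3.00 ± 0.694 against 17.4 ± 1.09 CPM and 3.15 ± 0.0814 against 15.6 ± 1.24 CPM. The reductase DHRS2 and the epidermal factor GRHL3 were above Control in both knockdowns and higher with DNMT1 knockdown; DHRS2 stood at 2.85 ± 0.301 CPM in Control, 7.55 ± 0.289 with DNMT3B and 37.0 ± 1.04 with DNMT1 knockdown.

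**Figure D5:**
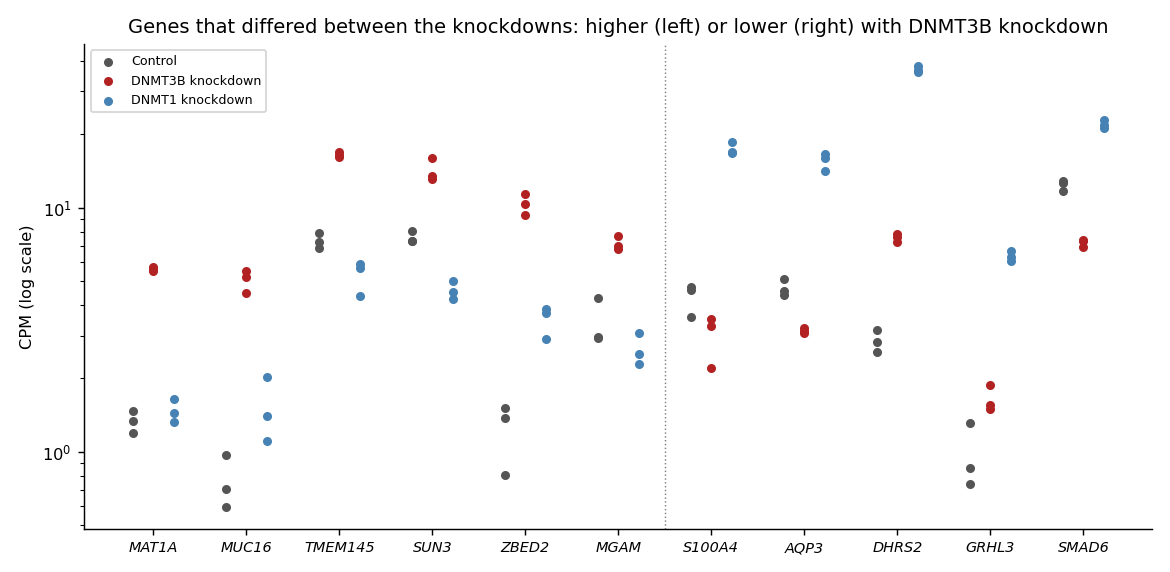
Levels in CPM (y axis, log scale) of 11 of the genes that the naming rule took for the difference between the knockdowns, in 3 libraries each of Control (grey), DNMT3B knockdown (red) and DNMT1 knockdown (blue). Left of the dotted line DNMT3B knockdown is the highest group, and right of it DNMT1 knockdown is.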

How the data were processed

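RNA of cells labelled HT29 was sequenced in 9 libraries, 3 per group, and groups came from the sample labels. The authors deposited raw read counts per gene symbol, with no scaling; the tools named, per the submitters' processing notes, were STAR, featureCounts and DESeq2, with the build GRCh38 (hg38). Settings, annotation and use of strand were not given in the sources used here. Antisense, overlapping and near-identical genes are therefore uncertain. All columns had a sample.

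The counts went into edgeR 4.0.16 (R 4.3.3) with filterByExpr by group, TMM scaling and the quasi-likelihood fit over all 9 libraries (residual degrees of freedom 6, prior 25.4; the common coefficient of biological variation was 2.96%), so the DNMT1 knockdown group adds to the estimate of the spread. Every adjusted p is from this test with Benjamini-Hochberg adjustment over all genes tested; a call is an adjusted p below 0.05. Folds are 2 to the power of the fitted log2 fold change, and ± after it is its standard error. "Rose" and "fell" mean called. CPM was taken over the genes tested, and for sums of cell type markers over all genes. A count of 0 allows up to 3 counts, 0.0891 to 0.16 CPM by library, for counting error only. Replicates of each group differed by more than counting noise, with a chi-square of 1.80 to 3.70 per degree of freedom. Ribosomal RNA genes took 0.597 to 0.771% of counts. Scripts were tested on simulated data.

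The comparison, 77 gene lists (109 symbols are in more than 1) and the naming rule were chosen with earlier results of these data known. The rule took DNMT3B, DNMT3A and DNMT1; ranks 9 to 20 by fold in each direction among called genes with at least 2 CPM and no overlap; the 10 largest CPM differences each way; up to 4 called members per list by adjusted p; and 6 genes each way between the knockdowns. Some genes the rule took are not reported here. Gene coordinates and promoters are from RefSeq (GRCh38.p14), in which 99.1% of tested symbols were found. Alternatives were DESeq2 1.42.0, limma-voom (limma 3.58.1), other scalings and filters, only the 6 libraries, the replicate block and leaving out each library.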

Additional observations from a re-analysis of the deposited data

How the results depend on the processing

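Of 358 named genes, each kept its direction under all 14 alternatives (with a mean of at least 2 CPM, 345 were tested), and calls were lost for 3, among them DNMT1 and PCDH12, when single libraries were left out. Requiring a mean of at least 2 CPM left fewer genes to test and gave 383 genes higher and 237 lower by at least 1.5-fold, against 888 and 365. Leaving out 1 library at a time gave 7032 to 7653 called genes against Control (3420 to 3771 higher, 3612 to 3882 lower), 848 to 969 higher and 353 to 387 lower by at least 1.5-fold, 6669 to 7602 against DNMT1 knockdown, and a DNMT3B log2 fold change of -1.05 to -0.95. Other settings gave 6706 (DESeq2) to 8187 (no low-count filter) called genes, of which 47.1 to 50.6% were higher.

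Equal replicate numbers did not mark paired libraries (correlation of deviations between Control and DNMT3B knockdown -0.0488 to 0.0320, with 1 of 3 numbers matching best). With the replicate block 7789 genes were called, 889 higher and 361 lower by at least 1.5-fold, and no named gene lost its call. List counts of few genes moved most, by over 1.5 times in 16 of 154 cases with DESeq2. Levels near 1 CPM rest on few counts, so falls there were harder to detect than rises.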

Other observations

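Genes of receptors for neurotransmitters were higher more often than lower. Of 45 tested (95 in the list), 19 rose (42.2%, against 23.1% of all genes tested) and 6 fell (13.3%, against 24.6%). The median log2 fold change was 0.24, and 11 of the rises were at least 1.5-fold. Members with few counts in Control could enter the test through a high knockdown group, which favours rises. Against DNMT1 knockdown, 10 genes of the list were higher and 8 lower with DNMT3B knockdown. Requiring a mean of 2 CPM left 11 rises. GRIN2B, a glutamate receptor subunit, stood at 0.984, 1.34 and 1.25 CPM in Control and 10.5, 10.4 and 10.6 with DNMT3B knockdown. The serotonin receptor HTR7 rose from 19.1 ± 1.09 to 34.4 ± 1.27 CPM. With DNMT1 knockdown GRIN2B stood at 8.27 ± 0.358 and HTR7 at 74.1 ± 2.46 CPM. The acetylcholine receptor subunit CHRNB1 fell 1.49-fold. Voltage-gated ion channels had 18 of 71 higher (25.4%) and 17 lower (23.9%), near the 23.1% and 24.6% of all genes tested, and 11 rises with a mean of at least 2 CPM; KCNN4, a calcium-activated potassium channel, fell from 68.6 ± 0.698 to 35.9 ± 0.740 CPM. Axon guidance genes of the semaphorin group had 12 of 27 higher and 6 lower: SEMA3A rose 1.74-fold, its receptor NRP1 fell from 132 ± 2.33 to 28.9 ± 1.91 CPM, and NRP2 rose from 13.5 ± 0.509 to 21.7 ± 1.09 CPM.

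Interferon-stimulated genes had 9 of 40 higher (22.5%) and 12 lower (30%), near the shares over all genes tested. ISG15 fell from 31.9 ± 2.49 to 22.1 ± 2.72 CPM, whereas SAMD9 rose 1.30-fold. Of 27 tested genes listed as promoter-methylated in colorectal cancer (53 in the list, the others too low to test), 9 rose and 5 fell. These were 33.3% and 18.5%, against 23.1% and 24.6% of all genes tested. The falls numbered 2 without DNMT3B knockdown replicate 3, and DESeq2 called 5 rises and 3 falls. TMEFF2 rose from 1.04 ± 0.0962 to 3.25 ± 0.300 CPM and RASSF2, a tumour suppressor, 1.64-fold. TWIST1 fell 1.41-fold and CDKN2A, also in this list, 2.19-fold. Germline and cancer-testis genes, often silenced by methylation, were mostly too low to test: 20 of 60 passed the filter, 2 rose (10%) and 4 fell (20%). Of 305 tested LINC noncoding RNAs 71 rose (23.3%, near the 23.1% of all genes tested) and 28 fell (9.18%, against 24.6%). With a mean of at least 2 CPM the counts were 37 and 18. LINC00857 rose from 11.9 ± 0.779 to 20.5 ± 0.617 CPM. Numbered zinc finger genes had 100 of 392 higher (25.5%) and 82 lower (20.9%) against Control, near the 23.1% and 24.6% of all genes tested. Against DNMT1 knockdown 53 were higher and 138 lower, where 20.9% and 24.3% of all tested genes were called higher and lower.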
